A study of Arabidopsis thaliana with 12 samples.

Results

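Chlorophyll is made in plastids from glutamate by way of protoporphyrin IX, into which magnesium is inserted on the branch that leads to chlorophyll. CHLM (AT4G25080), the magnesium-protoporphyrin IX methyltransferase, then transfers a methyl group from S-adenosylmethionine to this magnesium porphyrin. Geranylgeranyl reductase (AT1G74470) works on the other part of the molecule: it reduces geranylgeranyl groups to the phytyl tail that chlorophyll synthase joins to the ring, and phytyl from the same enzyme is also used for tocopherol. Both enzymes are encoded in the nucleus, made in the cytosol and imported into the plastid. CHLM and geranylgeranyl reductase were each measured by a single probe, chosen because the platform annotation names that locus alone, so 2 of the 3439 probes on the array are described here.

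Transcript levels were compared between Arabidopsis thaliana wild type (WT) and the prors1 mutant, both in ecotype Columbia 0, with 6 single-channel array samples of total RNA for each genotype. The labels describe prors1 as lacking prolyl-tRNA synthetase, the enzyme that loads proline onto transfer RNA, and they give no allele, tissue, age, light condition or number of plants. In total RNA, fewer cells with a transcript and less of it per cell cannot be told apart. PRORS1 itself was not analysed here. Samples carry replicate numbers 1 to 6 in each genotype, and nothing says whether they came from separate plants, so the p-values speak only to differences among these 12 samples and may rest on technical spread.

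Some facts of the arrays bear on every value below. Array medians were 0.154 ± 0.0141 for WT and 0.349 ± 0.0852 for prors1 (SD, n = 6 each) on the authors' linear scale, which ends at 100, and between 6.25% and 11.5% of probes per array stood at exactly 0. Both genes' probes were above 0 and above the intensity floor of 0.0467 on all 12 arrays. Samples 1-2, 3-4 and 5-6 of a genotype resembled each other, with SDs of their log2 ratios of 0.355 to 0.449 over 2385 features, against 0.428 to 0.762 for other combinations within a genotype. Tests that count 6 samples per genotype give too small a p if the members of a set are repeats of the same material.

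As deposited, CHLM gave intensities of 0.505 and 0.505 in WT samples 1 and 2, 0.410 and 0.360 in WT samples 3 and 4, and 0.423 and 0.399 in WT samples 5 and 6. The prors1 intensities of CHLM were 0.514 and 0.524 in samples 1 and 2, 0.683 and 0.629 in samples 3 and 4, and 0.339 and 0.389 in samples 5 and 6. The genotypes overlapped: samples 3 and 4 were the highest of prors1 and held the lowest value of WT, while prors1 sample 5 was the lowest of all 12. The means were 0.434 ± 0.0590 for WT and 0.513 ± 0.133 for prors1 (SD, n = 6 each), which did not differ beyond this spread (exact two-sided permutation test, p = 0.229, Benjamini-Hochberg adjusted p = 0.275 over 6 such tests).

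Geranylgeranyl reductase gave deposited intensities of 4.34 and 4.75 in WT samples 1 and 2, 4.87 and 4.66 in WT samples 3 and 4, and 4.43 and 4.37 in WT samples 5 and 6. The prors1 intensities of this gene were 3.63 and 3.48 in samples 1 and 2, 3.58 and 3.38 in samples 3 and 4, and 4.72 and 4.31 in samples 5 and 6. Of the 6 prors1 samples 5 lay below every WT sample, with sample 6 just under the lowest WT value, and prors1 sample 5 lay inside the WT range. The means were 4.57 ± 0.223 for WT and 3.85 ± 0.537 for prors1 (SD, n = 6 each; exact two-sided permutation test, p = 0.0216, adjusted p = 0.0325 over the same 6 tests). With samples 1-2, 3-4 and 5-6 averaged first, the exact p was 0.2, where 3 sets per genotype cannot give less than 0.1.

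**Figure D1:**
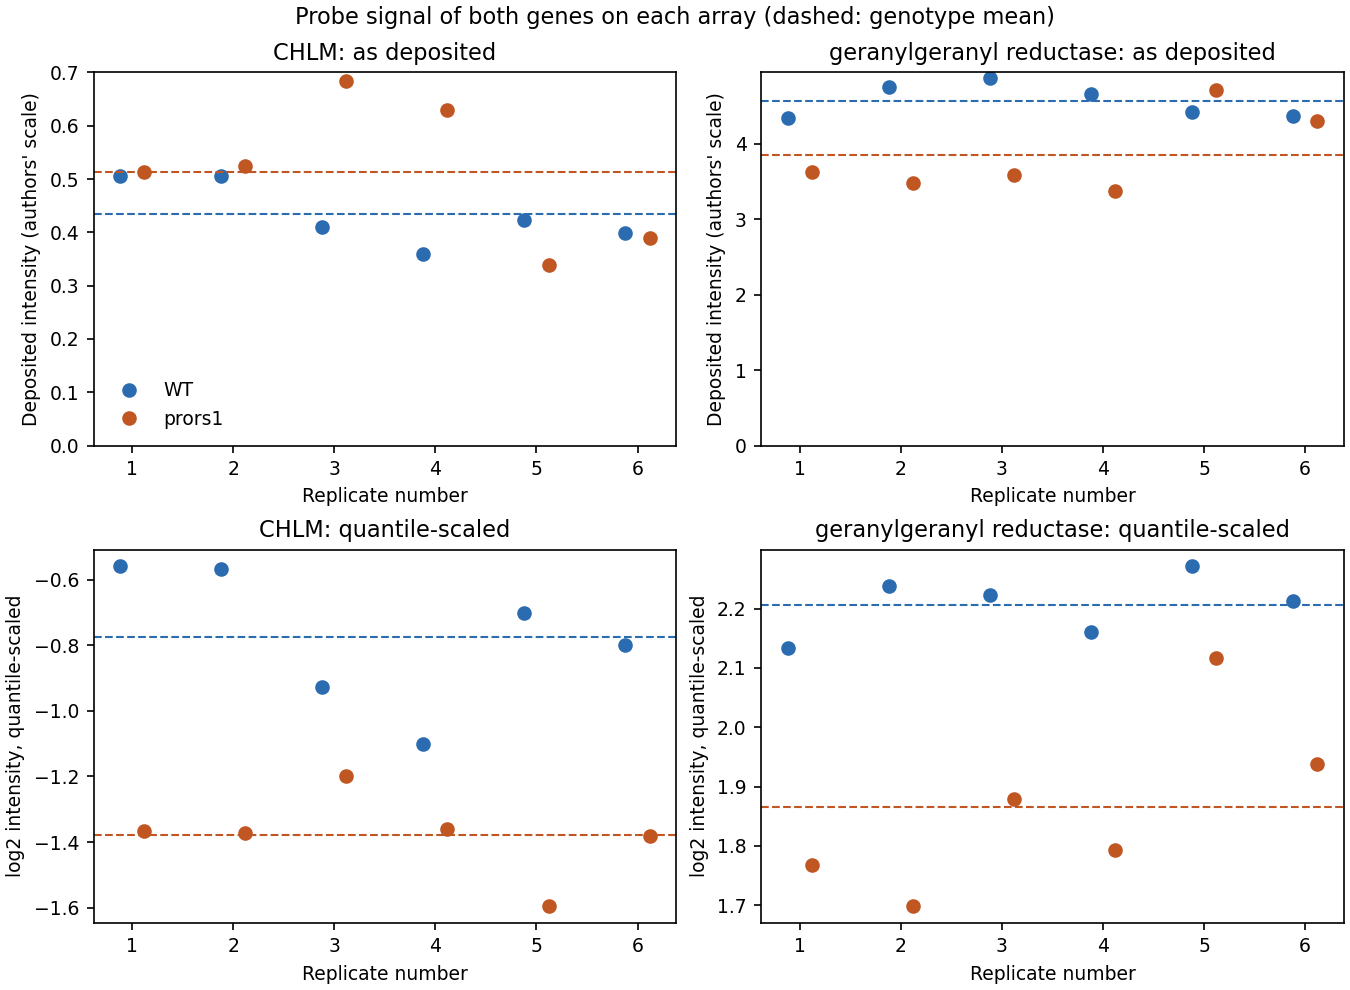
Signal of the CHLM probe (left) and the geranylgeranyl reductase probe (right) on each array, against replicate number, as deposited intensity (top) and as quantile-scaled log2 intensity (bottom); points are samples and dashed lines genotype means. After scaling, all 6 prors1 points of each gene lie below all 6 WT points, while as deposited the genotypes overlap.

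As a share of the summed signal of the array, geranylgeranyl reductase was lower in prors1, while CHLM did not differ beyond the spread between samples. The share of geranylgeranyl reductase was 0.151% ± 0.00471 for WT and 0.116% ± 0.0194 for prors1 (SD, n = 6 each; exact two-sided permutation test, p = 0.00649, adjusted p = 0.013 over the 6 tests). Its prors1 share was below the WT share in 6 of 6 samples of equal number, with prors1 sample 5, at 0.147%, inside the WT range. The share of CHLM was 0.0144% ± 0.00219 for WT and 0.0154% ± 0.00367 for prors1 (SD, n = 6 each; exact permutation p = 0.554, adjusted p = 0.554), and prors1 was lower in 4 of 6 samples of equal number.

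The place of a probe in the brightness order of its own array does not move with any rescaling of that array that keeps the order, so it was compared across arrays for each gene separately. CHLM stood at the 70.6th percentile in its lowest WT sample, with a WT median of 77.2 and a highest value of 80.2. In prors1 the percentile of CHLM ranged from 59.9 to 68.7, with a median of 65.2. The genotypes did not overlap, and the mean position fell by 11.7 percentile points (exact two-sided permutation test, n = 6 each, p = 0.00216, the smallest that 12 samples allow, adjusted p = 0.00649 over the 6 tests). After quantile scaling (described below), 14.1% of all features were lower in prors1 without overlap. A position also depends on the other probes. As deposited, limma called 61.4% of features higher, and the mean of CHLM was 0.513 in prors1 and 0.434 in WT.

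Geranylgeranyl reductase, near the top of every array, moved over a narrower range. Its percentile ran from 97.2 to 97.4 in WT and from 96.2 to 97.1 in prors1, which is 88 to 97 brighter probes in WT and 98 to 131 in prors1. The mean position fell by 0.717 percentile points without overlap, but prors1 sample 5 lay next to WT sample 1, separated by a single place in the order (exact two-sided permutation test, n = 6 each, p = 0.00216, adjusted p = 0.00649 over the 6 tests). Here too, 14.1% of all features were lower in prors1 without overlap after quantile scaling. Taking samples of equal number as matched, both genes were lower in prors1 in 6 of 6 comparisons, with an exact sign-flip p of 0.03125 for each, the smallest that 6 differences allow. With the sets 1-2, 3-4 and 5-6 averaged, the exact p was 0.1 for each, again the smallest possible.

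**Figure D2:**
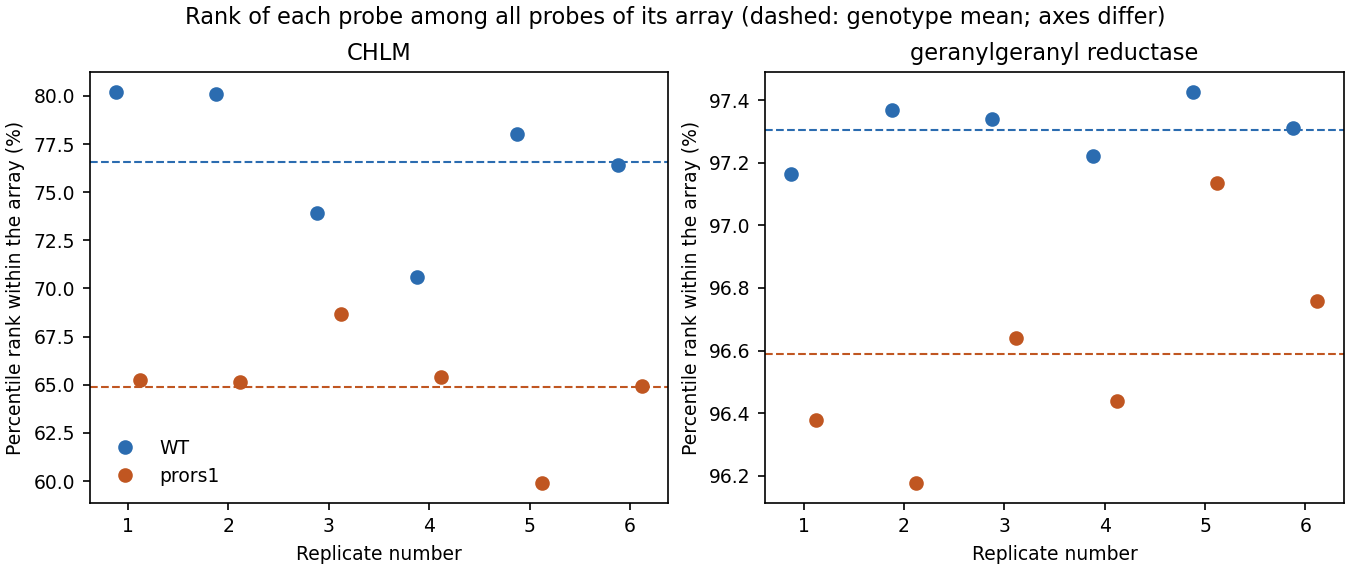
Percentile rank of each probe among all 3439 probes of its array, against replicate number, for CHLM (left) and geranylgeranyl reductase (right), with dashed lines at the genotype means and different vertical axes. CHLM spans 59.9 to 68.7 in prors1 and 70.6 to 80.2 in WT.

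Quantile scaling, which gives all arrays 1 shared distribution, turns these positions into intensities, so its result is not independent of the ranks. After it, CHLM had log2 intensities of -1.10, -0.75 and -0.56 in WT (lowest, median and highest) and -1.59, -1.37 and -1.20 in prors1. Every prors1 value was below every WT value, as was so for 14.1% of all 3303 features. CHLM fell by 0.60 ± 0.12 on the log2 scale (SE, limma, adjusted p = 0.00118), a 1.52-fold lower level, and 19.8% of features fell further.

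Geranylgeranyl reductase had quantile-scaled log2 intensities of 2.13, 2.22 and 2.27 in WT (lowest, median and highest) and 1.70, 1.84 and 2.12 in prors1. It fell by 0.34 ± 0.091 on the log2 scale (SE, limma, adjusted p = 0.00913), a 1.27-fold lower level, and 31.2% of features fell further. Both genes were thus called lower in the fit that called 23.2% of all features lower and 19.6% higher. With the sets averaged, 11.8% of features were called lower and neither gene passed in limma (adjusted p = 0.0537 for CHLM and 0.155 for geranylgeranyl reductase).

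The size and, for CHLM, the direction of the difference depended on the scaling. Without scaling the median log2 difference over all features was 0.91, and 5.5% of features were called lower. CHLM was 0.21 ± 0.18 higher there (SE, limma, adjusted p = 0.319), which is -0.70 relative to the median feature. Geranylgeranyl reductase had a difference of -0.26 ± 0.11 on the same values (SE, limma, adjusted p = 0.0607), or -1.17 relative to the median feature, and 7.95% of features had a lower change.

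When each array was divided by its median, 30.5% of features were called lower, CHLM had a log2 difference of -0.94 ± 0.13 and geranylgeranyl reductase one of -1.40 ± 0.22 (SE, limma, adjusted p = 8.09e-05 and 0.000215). When each array was divided by its mean, with the median feature 0.78 higher and 7.41% of features called lower, geranylgeranyl reductase was lower by a called difference of -0.39 ± 0.12 (SE, limma, adjusted p = 0.0129). CHLM gave 0.078 ± 0.18 there (SE, limma, adjusted p = 0.71). After cyclic loess, which removes trends that depend on brightness and called 21.7% of features lower, CHLM fell by 0.56 ± 0.14 (SE, limma, adjusted p = 0.00564) and geranylgeranyl reductase had a difference of -0.19 ± 0.097 (SE, limma, adjusted p = 0.147). Relative to the median feature, both genes were lower in prors1 under all 5 scalings, which reuse the same arrays. Across the scalings, 18.1% to 21.5% of features had a lower change than CHLM. For geranylgeranyl reductase this share ran from 7.59% to 38.6%, and both shares were highest after cyclic loess. There, geranylgeranyl reductase differed from the median feature by -0.28 in samples 1-2, -0.22 in samples 3-4 and 0.018 in samples 5-6. CHLM gave -0.77, -0.10 and -0.73 in the same sets.

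**Figure D3:**
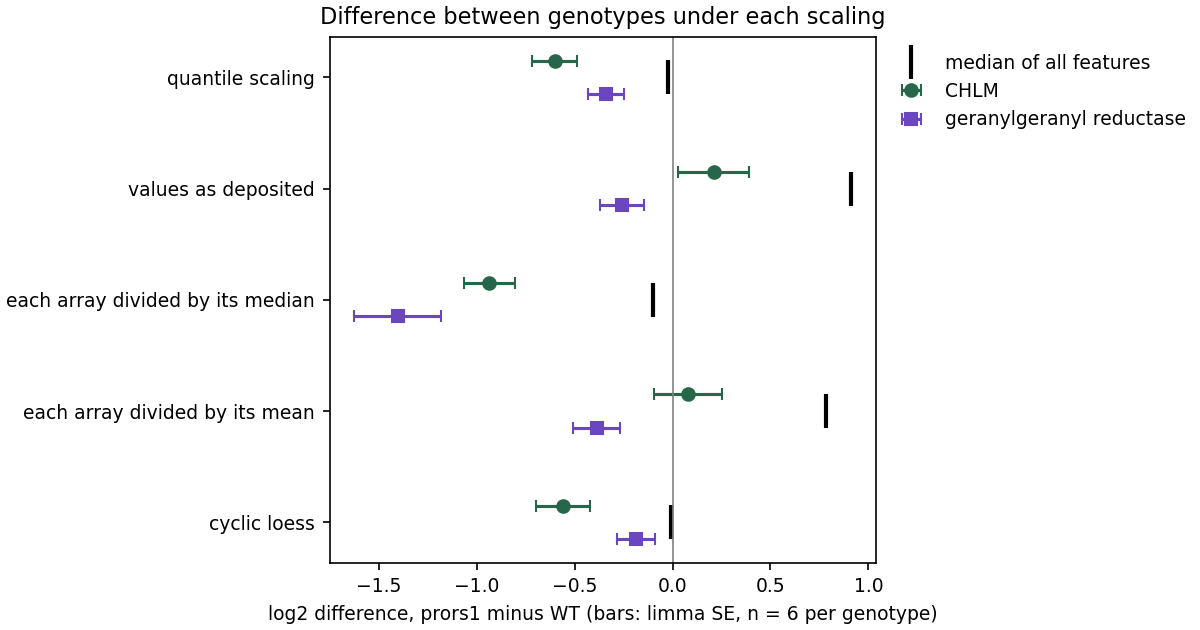
Log2 difference between prors1 and WT for CHLM (circles) and geranylgeranyl reductase (squares) under 5 scalings, with bars for the limma SE (n = 6 per genotype) and black ticks for the median of all features. Both genes lie to the left of the median feature in each row, from -0.70 and -1.17 relative to it as deposited to -0.55 and -0.18 after cyclic loess.

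The differences were also uneven between the sets of samples. After quantile scaling CHLM differed by -0.81 in samples 1-2, -0.26 in samples 3-4 and -0.74 in samples 5-6 on the log2 scale. Geranylgeranyl reductase differed by -0.45, -0.36 and -0.21 in the same sets. The set with the smallest difference was thus 3-4 for CHLM and 5-6 for geranylgeranyl reductase. As deposited, CHLM gave 0.039, 0.77 and -0.18 where the median feature gave 0.92, 1.10 and 0.66, and geranylgeranyl reductase gave -0.35, -0.45 and 0.036. Leaving out samples 1-2 or samples 3-4 of both genotypes ended the call of geranylgeranyl reductase after quantile scaling (adjusted p = 0.0715 and 0.0514 in limma), whereas CHLM was called in each of the 21 fits that left out a sample, a number or a set, with a largest adjusted p of 0.0268.

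**Figure D4:**
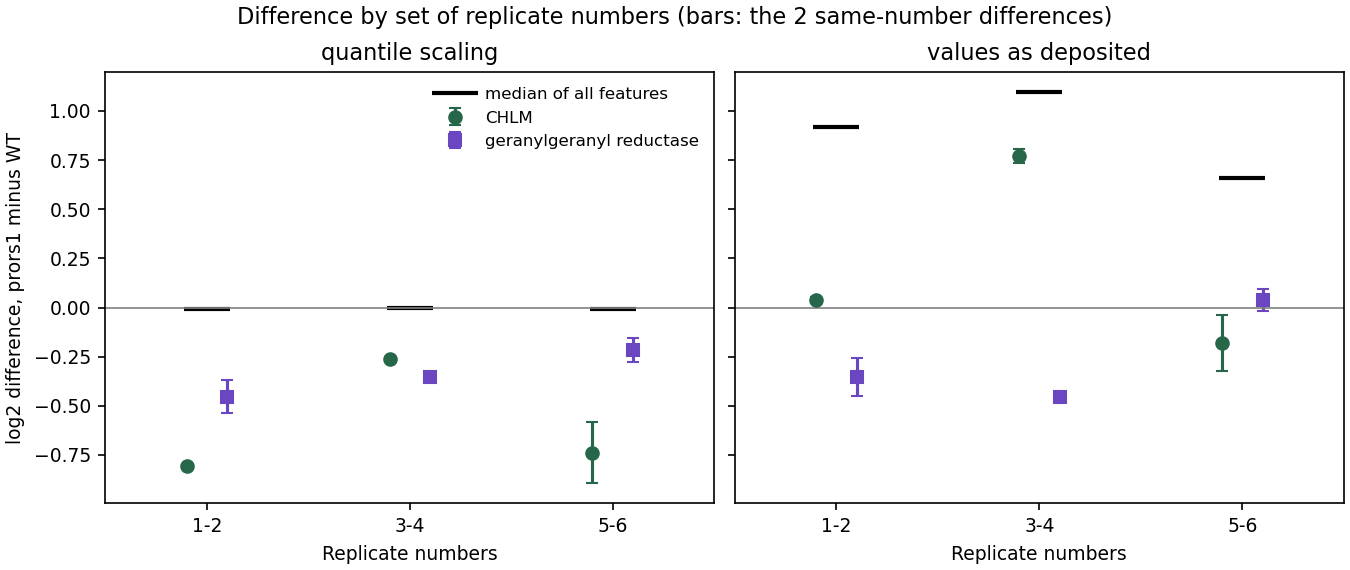
Log2 difference between prors1 and WT in samples 1-2, 3-4 and 5-6, after quantile scaling (left) and as deposited (right), for CHLM (circles) and geranylgeranyl reductase (squares); bars span the differences of the samples of equal number, and black dashes mark the median of all features. As deposited, CHLM in samples 3-4 stands at 0.77 under a median feature of 1.10.

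Whether CHLM or geranylgeranyl reductase changed more was not settled by these arrays. The log2 signal of CHLM minus that of geranylgeranyl reductase on the same array, a quantity that no single factor per array can move, was -3.41 ± 0.22 for WT and -2.94 ± 0.57 for prors1 (SD, n = 6 each) as deposited. The change of CHLM was thus 0.47 above that of geranylgeranyl reductase (exact two-sided permutation p = 0.0909), with 0.39, 1.22 and -0.22 in samples 1-2, 3-4 and 5-6. After quantile scaling the change of CHLM minus that of geranylgeranyl reductase was -0.26 (exact two-sided permutation p = 0.0758), and after cyclic loess it was -0.37 (exact permutation p = 0.0346). The sign turned with the scaling, and these are 3 tests of a single question, unadjusted.

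The neighbouring pathways were read from 11 lists with 145 loci on tetrapyrroles, chlorophyll, isoprenoids, methyl group supply and chlorophyll-binding proteins, of which 8 loci were measured by a single-gene probe. In the chlorophyll branch list, CHLM and geranylgeranyl reductase were the 2 measured of 17 loci. Of the 6 other measured genes, 3 were called lower and 0 higher by limma after quantile scaling (also 0 higher at an unadjusted p under 0.05). Of all features, 23.2% were called lower and 19.6% higher. The median log2 difference was -0.34 over these 6 and -0.024 over all features. As deposited 1 of the 6 was called lower and 3 higher, against 5.5% and 61.4% of all features.

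Of the 2 measured genes that stand before or beside CHLM in tetrapyrrole metabolism, 1 was called lower after quantile scaling. HEMA3 (AT2G31250), a glutamyl-tRNA reductase gene of the first committed step, had log2 intensities of -0.32, -0.24 and -0.18 in WT (lowest, median and highest) and -0.33, -0.13 and -0.017 in prors1. Its difference of 0.11 ± 0.084 (SE, limma, adjusted p = 0.308) did not pass, and the genotypes overlapped. SIRB (AT1G50170), the sirohydrochlorin ferrochelatase of siroheme synthesis, had -3.04, -2.94 and -2.51 in WT, and in prors1 4 of 6 values lay at the intensity floor with the highest at -3.76. SIRB fell by 1.36 ± 0.15 on the log2 scale (SE, limma, adjusted p = 2.38e-05), a size understated by the floor, and without scaling its difference was -0.12 (adjusted p = 0.714).

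CBL (AT3G57050) encodes a cystathionine beta-lyase that acts in the synthesis of methionine, the precursor of the methyl donor that CHLM uses. It had log2 intensities of -1.21, -1.02 and -0.96 in WT (lowest, median and highest) and -2.73, -2.39 and -2.01 in prors1. All prors1 values of CBL were below all WT values, as for 14.1% of all features, and CBL fell by 1.32 ± 0.12 (SE, limma, adjusted p = 3.9e-06). Unscaled, CBL differed by -0.37 and missed the threshold (adjusted p = 0.123). LHB1B2 (AT2G34420), an antenna protein that binds chlorophyll, fell by 0.53 ± 0.12 (SE, limma, adjusted p = 0.00324). Its difference was negative under all 5 scalings, from -2.04 after division by array medians to -0.47 after cyclic loess. With sets averaged its call was lost (adjusted p = 0.0778), and its scaled values overlapped between genotypes. Its deposited intensities did not overlap, at 29.4 to 35.3 in WT and 16.1 to 19.8 in prors1. The share of all features without overlap as deposited was not computed. On the deposited values the log2 difference of LHB1B2 was -0.89 (limma adjusted p = 1.03e-05), where 5.5% of all features were called lower.

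The measured genes of phytyl use and of carotenoids did not pass. VTE6 (AT1G78620), which phosphorylates phytyl phosphate on the salvage route from chlorophyll to tocopherol, had a quantile-scaled log2 difference of 0.076 ± 0.20 (SE, limma, adjusted p = 0.791). Z-ISO (AT1G10830), the carotene isomerase of carotenoid synthesis, had one of -0.15 ± 0.20 (SE, limma, adjusted p = 0.59). As deposited HEMA3, VTE6 and Z-ISO were called higher, at 0.68, 0.89 and 1.06 (limma adjusted p = 0.000753, 0.00014 and 0.00674), around the median feature of 0.91. No gene of the isoprenoid precursor route, of chlorophyll breakdown, of the listed regulators or of the senescence and seed markers was analysed here.

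**Figure D5:**
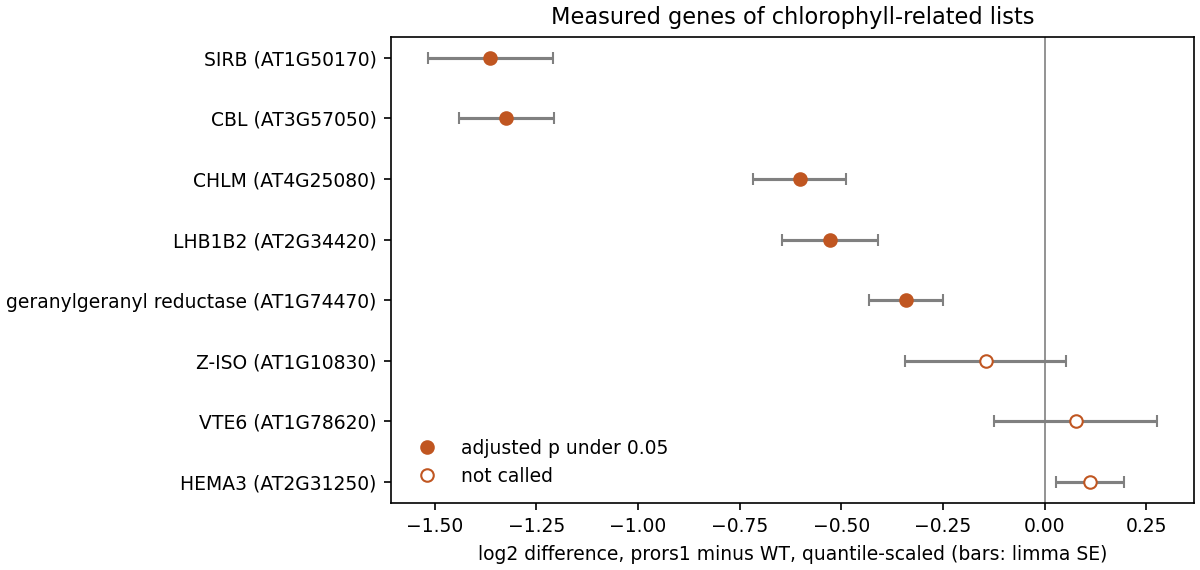
Quantile-scaled log2 difference between prors1 and WT for the 8 measured genes of the lists, with bars for the limma SE; filled points passed an adjusted p of 0.05 and open points did not. The 5 filled points run from -1.36 for SIRB to -0.34 for geranylgeranyl reductase.

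Genes with the most similar profile were sought among 459 other single-gene features never at the floor, by the root mean square (RMS) difference of their quantile-scaled log2 values over the 12 samples, each centred on its WT mean. Since only the WT mean was removed, the shift in prors1 was part of the choice. That the genes named below for CHLM or geranylgeranyl reductase were lower too follows from this choice, and their p-values are no separate evidence. For CHLM these were LrgB (AT1G32080), SECE1 (AT4G14870) and LHB1B2, at RMS differences of 0.20, 0.20 and 0.21, against a median of 0.61. LrgB, the plastid glycolate and glycerate transporter gene, fell by 0.48 ± 0.094 (SE, limma, adjusted p = 0.00139), and SECE1, for a subunit of the thylakoid Sec translocase, fell by 0.69 ± 0.12 (adjusted p = 0.000485). With sets averaged LrgB lost its call (adjusted p = 0.0644) and SECE1 did not (adjusted p = 0.0298).

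For geranylgeranyl reductase the most similar profiles were those of AT3G29185, AT1G50880 and AT2G30320, at RMS differences of 0.11, 0.13 and 0.14, against a median of 0.51. Their log2 differences were -0.30 (adjusted p = 0.0196 in limma), -0.24 (adjusted p = 0.137) and -0.37 (adjusted p = 0.00735). AT3G29185 and AT2G30320 lost their calls with sets averaged (adjusted p = 0.179 and 0.115), with sets as a random block (0.118 and 0.0629) and after cyclic loess (0.0868 and 0.0508). CHLM and geranylgeranyl reductase differed from each other by an RMS of 0.28, which put geranylgeranyl reductase at place 22 among the profiles nearest to CHLM and CHLM at place 55 among those nearest to geranylgeranyl reductase. A small RMS difference also depends on how little a probe varies between samples, and these orders belong to the quantile-scaled values.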

How the data were processed

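Single-channel arrays were hybridised with total RNA of 6 WT and 6 prors1 samples, whose groups and replicate numbers came from the sample titles. The deposited table holds linear intensity values, with a column for each sample. For the authors' intensities, the scanner, background correction and scaling are not given in the sources used here. Precision is limited by the number of arrays.

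Probes were named through GEO's platform annotation, some of it possibly outdated: 692 probes have 1 gene, 870 several and 1877 none, and 690 of the 692 matched the TAIR10.1 gene table by gene identifier. No coordinates are given, since no genome build is named for the probes. Arrays were quantile-scaled and converted to log2, with a floor at the 5th percentile of all values above 0 (0.0467). The floor covers 13.7% of the scaled values of all 3439 probes, so differences of dim genes are understated. The 2 rows of a shared locus were averaged and 135 features at the floor on every array left out. The 3303 features were fitted by lmFit and eBayes of limma 3.58.1 (R 4.3.3) with genotype as the sole term; p-values are two-sided and adjusted by Benjamini-Hochberg over all features, with a threshold of 0.05. The limma fit was tried on simulated log2 values drawn independently for each sample. Scaling, the floor and the resemblance within sets were not part of that trial. The genes, lists and alternatives were chosen with earlier results of these data known. Named genes are CHLM and geranylgeranyl reductase, all measured list genes, and the 3 most similar profiles for each.

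Replicate numbers were taken to pair the samples in the comparisons of equal number and in the replicate block, while the main fit is unpaired. WT and prors1 samples of equal number deviated together from their genotype means (correlations of 0.346 to 0.489 over 2385 features above the floor on every array). No such correlation was computed for samples of unequal number, so these values cannot tell a match by number from one by set. The labels do not say what a number marks. Alternatives were other scalings, floors, filters, variance models, a replicate block, averaged or random sets, and samples left out. For CHLM and geranylgeranyl reductase they also included exact permutation tests of the scaled values and of the percentile ranks.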

Additional observations from a re-analysis of the deposited data

Results flagged for a closer look

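In 34 groups of 6 samples checked for a value far from the rest, 1 stood out, where chance gives about 1 in 20. LHB1B2 (AT2G34420), among the profiles nearest to CHLM, was lowest in WT replicate 1 at 4.64 on the quantile-scaled log2 scale, with the next WT value at 4.83. That value is identical in WT replicates 2, 3, 4 and 6, because quantile scaling gives probes of equal rank the same value. As deposited, WT replicate 1 gave 29.4 and the other WT samples 32.2 to 35.3. Neither CHLM nor geranylgeranyl reductase had such a sample in the deposited intensities, the percentile ranks or the scaled values of either genotype.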

How the results depend on the processing

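CHLM kept its direction and call under 12 of 15 alternatives. Its difference was 0.21 as deposited and 0.078 after division by array means, and at -0.60 it missed the threshold with sets averaged (adjusted p = 0.0537). Geranylgeranyl reductase kept both under 12 of 15 and missed the threshold as deposited (-0.26), after cyclic loess (-0.19) and with sets averaged (-0.34). For each gene the 12 include exact permutation tests of the scaled values and of the percentile ranks (unadjusted p = 0.00216 in each). Those tests rest on the same order of values and are not separate checks. Floors, filters, variance models, blocks and averaged or random sets left the log2 estimate of each gene unchanged, at -0.60 and -0.34. Only the other scalings moved it, so these counts are not counts of independent checks. Fits without samples, numbers or sets gave -0.77 to -0.50 for CHLM and -0.40 to -0.29 for geranylgeranyl reductase, which lost its call without samples 1-2 or 3-4. The replicate block changed neither call (limma adjusted p = 0.00473 and 0.0132), nor that of any other named gene, and called 875 features lower and 789 higher. The sets as a random block kept both calls (adjusted p = 0.00719 and 0.0435).

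With sets averaged, the rank differences of -11.7 and -0.717 percentile points had an exact p of 0.1, the smallest possible, and without single samples they ranged from -12.8 to -10.7 and from -0.827 to -0.635. The change of CHLM minus that of geranylgeranyl reductase was 0.47 as deposited and with division by medians or means, -0.37 after cyclic loess and -0.32 to -0.17 without single samples; matched by number (replicate block) its exact sign-flip p was 0.125.

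Features called lower numbered 765, but 182 as deposited, 245 with division by means, 391 with sets averaged and 487 to 829 without samples. Features called higher numbered 649, but 2030, 1849, 358 and 428 to 743. Of the 6 other list genes, 1 was called lower and 3 higher as deposited, 2 lower and 3 higher with division by means, 4 lower and 0 higher with division by medians, and 2 lower and 0 higher with sets averaged. In the same order, 5.5%, 7.41%, 30.5% and 11.8% of all features were called lower. Called higher were 61.4% of all features as deposited and 1849 of 3305 with division by means. Division by medians called 552 of 3293 higher, and averaged sets 358 of 3303.

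As deposited and with division by means, signs turned for Z-ISO (1.06 and 0.93), LrgB (0.41 and 0.27), AT3G29185 (0.69 and 0.55) and AT2G30320 (0.34 and 0.21), and as deposited for SECE1 (0.064) and AT1G50880 (0.10). With division by medians they turned for HEMA3 (-0.47) and VTE6 (-0.26), and VTE6 ranged from -0.026 to 0.24 without samples. The cause was not tested. A filter on dim features left SIRB without a value.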
